A study of Mus musculus with 12 samples.

Results

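The 6 genes described here encode parts of the phagocyte NADPH oxidase or proteins that serve it: Cybb, Cyba, Ncf1, Ncf4, Rac2 and Hvcn1. They were chosen by gene symbol with earlier results of these data known, so their counts and medians beside all genes are a description. Each had 1 transcript cluster (the set of probes that the array summarises into a single value) among the 19505 genes named on the array. All 6 were measured in all 12 arrays, and none was left out by a filter, save Hvcn1 in an alternative fit described at the end. The cells were white matter cells of C57BL/6 mice, selected with magnetic beads against the glutamate transporter GLAST after papain dissociation and Fc receptor blocking, and labelled astrocytes. The 4 groups held 3 biological replicates each: wild-type mice after 0, 3 and 12 weeks on a diet with 0.2% cuprizone, and GnT-IX-deficient mice after 12 weeks on it. Cuprizone binds copper and, fed to mice, causes loss of oligodendrocytes and their myelin; GnT-IX is the glycosyltransferase encoded by Mgat5b. The diet began at 8 to 12 weeks of age in every group, so its length went with age at sampling and their effects cannot be told apart. The sources used here do not say how the GnT-IX deficiency was made, how many mice gave 1 sample, or which of 2 RNA kits each sample had, so kit and group cannot be told apart. No untreated GnT-IX-deficient mice were analysed here.

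The phagocyte NADPH oxidase passes electrons from NADPH across a membrane to oxygen and so makes superoxide, which phagocytes use against microbes and in signalling. Its membrane core, flavocytochrome b558, is a dimer of the catalytic subunit gp91phox (NOX2, from Cybb) and p22phox (from Cyba), which stabilises it. On activation the organiser p47phox (from Ncf1) and p40phox (from Ncf4) move to the core together with a GTP-bound Rac, in blood phagocytes mainly Rac2. The proton channel Hv1 (from Hvcn1) balances the charge that the electrons carry across. In the brain the complex is best known in microglia, where its output has been tied to inflammatory injury, including injury of oligodendrocytes.

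RefSeq promoters (assembly GRCm38.p6, from 250 bases before to 50 after the annotated start) were matched for 3 of the genes, Cybb, Cyba and Ncf1. The promoter source used here held no entry for Ncf4, Rac2 and Hvcn1, so the 3 that were matched are shown whatever their results. PU.1, the myeloid factor encoded by Spi1, is known to act at oxidase genes, which is why the core of its sites was searched. The letters searched were GAGGAA, the core of PU.1 sites, on both strands (read as TTCCTC on the strand opposite), and capitals mark a match. The first runs over chrX:9469275-9469574, the second over chr8:122432891-122433190 and the third over chr5:134229576-134229875, all on the minus strand and all written in the direction of transcription.
Cybb: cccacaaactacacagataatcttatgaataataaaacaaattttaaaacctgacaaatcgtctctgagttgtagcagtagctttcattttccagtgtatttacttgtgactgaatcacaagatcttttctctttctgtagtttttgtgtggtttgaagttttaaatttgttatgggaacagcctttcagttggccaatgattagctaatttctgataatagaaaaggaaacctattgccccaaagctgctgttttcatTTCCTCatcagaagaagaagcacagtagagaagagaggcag
Cyba: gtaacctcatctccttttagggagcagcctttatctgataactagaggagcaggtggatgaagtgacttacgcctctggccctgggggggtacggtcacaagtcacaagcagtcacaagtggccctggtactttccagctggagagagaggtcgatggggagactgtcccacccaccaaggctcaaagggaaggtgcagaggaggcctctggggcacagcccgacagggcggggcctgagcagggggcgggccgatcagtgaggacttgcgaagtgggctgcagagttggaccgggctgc
Ncf1: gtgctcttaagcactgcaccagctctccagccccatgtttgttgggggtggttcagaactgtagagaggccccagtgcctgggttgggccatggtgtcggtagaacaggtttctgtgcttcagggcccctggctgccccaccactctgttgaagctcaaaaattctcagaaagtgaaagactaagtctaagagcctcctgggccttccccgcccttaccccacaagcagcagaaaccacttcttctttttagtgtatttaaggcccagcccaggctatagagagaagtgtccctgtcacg
The Cybb window held 1 match, on the opposite strand, 9 bases past the annotated start. The windows of Cyba and Ncf1 held 0 matches, and 28.3% of 32851 RefSeq promoters of the same length held at least 1. A match of 6 letters is a description of the sequence and not a site of binding.

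Array medians lay between 5.38 and 5.45, and levels here are log2 RMA values throughout, which set the arrays to a like distribution and compress the changes of dim genes. The lower quartile of an array, 3.73 to 3.85, marks a gene as dim, since no detection calls were used here. The mean of 10 astrocyte markers lay between 8.36 and 9.51 over the 12 arrays, that of 7 oligodendrocyte markers between 8.56 and 10.01, and that of 17 microglia markers between 5.12 and 8.86. Replicate 1 of the 3-week group stood apart, with a microglia marker mean of 8.70 against 6.86 and 6.46 in replicates 2 and 3, so differences from or to 3 weeks are also given without it. Mgat5b, which encodes GnT-IX, was at 3.70, 4.19 and 4.06 in the GnT-IX-deficient arrays and between 5.57 and 6.49 in the 9 wild-type arrays. Slc1a3, which encodes GLAST, was between 8.01 and 8.84 at 0 weeks and between 6.49 and 7.61 in the other 9 arrays.

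The catalytic subunit gene Cybb had the largest differences of the 6. It was at 3.31, 3.28 and 3.59 in the 3 arrays at 0 weeks, all below the lower quartile. At 3 weeks it was at 7.76, 5.54 and 5.60, with replicate 1 well above the others. At 12 weeks the wild-type arrays were at 7.72, 8.87 and 8.16 and the GnT-IX-deficient arrays at 6.50, 6.90 and 7.23. Every cuprizone array thus lay above every 0-week array, and at 12 weeks every GnT-IX-deficient array lay below every wild-type array. Group means rose in the order 3.39 ± 0.17 at 0 weeks, 6.30 ± 1.26 at 3 weeks, 6.88 ± 0.37 in the deficient group and 8.25 ± 0.58 in wild-type mice at 12 weeks (SD, n = 3 each). The middle pair overlapped, and so did wild-type mice at 3 and 12 weeks.

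Cyba, which encodes the partner that keeps gp91phox stable, was well above the array medians before the diet, at 7.23, 7.36 and 7.31. Its 3-week arrays were at 9.40, 8.06 and 7.74, and its 12-week wild-type arrays at 8.92, 9.86 and 9.16. In GnT-IX-deficient mice it was at 8.30, 9.26 and 8.77. As for Cybb, all cuprizone arrays lay above all 0-week arrays, but the deficient and wild-type arrays at 12 weeks overlapped. The group means were 7.30 ± 0.07, 8.40 ± 0.88, 9.31 ± 0.49 and 8.78 ± 0.48 (SD, n = 3) in the order 0, 3 and 12 weeks and deficient.

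Rac2, the Rac GTPase of blood cells, was at 4.54, 3.80 and 4.02 at 0 weeks. It reached 7.75, 5.81 and 5.40 at 3 weeks, and 6.64, 7.87 and 6.87 at 12 weeks. The GnT-IX-deficient arrays were at 5.76, 7.12 and 6.17. The 0-week arrays lay below all others, while the 3 cuprizone groups overlapped each other. Rac1, the Rac found in nearly all cells, was between 10.92 and 11.33 on the 12 arrays, and its difference at 12 against 0 weeks was -0.03 with a 95% interval of -0.35 to 0.29.

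Of the cytosolic subunits, Ncf1, the organiser, differed less from 0 weeks by value than Ncf4 did in all 3 cuprizone groups. It was at 5.84, 5.77 and 5.62 at 0 weeks, 6.49, 5.68 and 5.52 at 3 weeks, and 6.52, 6.44 and 6.43 at 12 weeks. Its 3-week arrays straddled the 0-week ones, and its 12-week wild-type arrays lay above them within a narrow band (6.46 ± 0.05, SD, n = 3). In GnT-IX-deficient mice it was at 5.94, 6.55 and 6.00. Ncf4, whose product binds phosphatidylinositol 3-phosphate on phagosomes, was at 3.85, 3.80 and 3.93 at 0 weeks, at or just above the lower quartile. It was at 5.65, 4.22 and 3.77 at 3 weeks, and only replicate 1 and replicate 2 exceeded the 0-week arrays. At 12 weeks it was at 4.76, 6.08 and 5.09 in wild-type and at 4.49, 5.79 and 4.99 in deficient mice, above all 0-week arrays but overlapping each other.

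Hvcn1, the proton channel gene, was dim at 0 weeks, at 3.31, 3.70 and 3.70. Its values were 4.98, 3.84 and 3.81 at 3 weeks and 4.93, 5.37 and 4.26 at 12 weeks. In GnT-IX-deficient mice it was at 3.23, 4.30 and 3.85, with replicate 1 below the lower quartile again. The 12-week wild-type arrays lay above all 0-week arrays, while the deficient arrays overlapped the 0-week ones. For Cybb and Hvcn1, whose 0-week means lay below the lower quartile, the size of any difference from 0 weeks is uncertain.

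**Figure D1:**
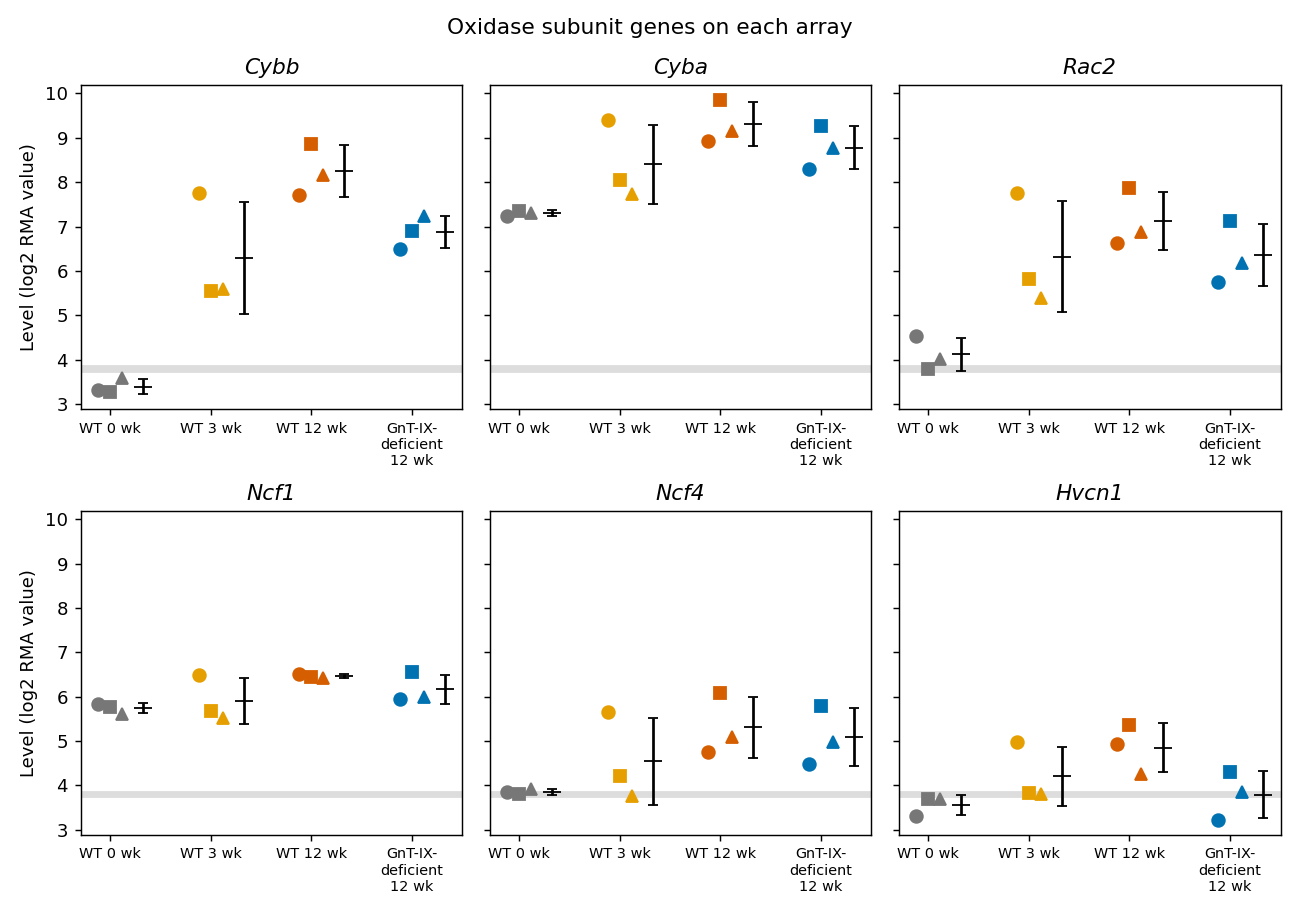
Level (log2 RMA value) of each of the 6 genes on each array by group, with circles, squares and triangles for replicates 1, 2 and 3, the group mean and SD (n = 3) beside them, and a grey band for the lower quartiles of the arrays, 3.73 to 3.85. Cybb goes from 3.28 to 3.59 at 0 weeks to 7.72 to 8.87 in wild-type mice at 12 weeks, and Ncf1 stays between 5.52 and 6.55.

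The comparison of 3 with 0 weeks in wild-type mice asked which of these genes differed early in the diet. Cybb and Rac2 rose, and the other 4 missed the threshold (limma over 19505 genes, adjusted p below 0.05), where 1.61% of all genes were called higher. Cybb rose by 2.91 (SE 0.45, adjusted p = 0.00345) and Rac2 by 2.20 (SE 0.50, adjusted p = 0.0272). The differences of Cyba (1.10, 95% interval 0.33 to 1.87), Ncf4 (0.69, -0.23 to 1.60), Hvcn1 (0.64, -0.084 to 1.36) and Ncf1 (0.15, -0.34 to 0.65) were not called. In 4 genes the 3-week arrays all lay above the 0-week arrays, as they did in 10.8% of all genes. The median difference of the 6 was 0.89, against -0.02 over all genes. Without replicate 1 of the 3-week group Cybb still rose, by 2.18 (SE 0.29, adjusted p = 0.00206), whereas Rac2 was at 1.49 (adjusted p = 0.0807). Without it the other differences were 0.60 for Cyba, 0.25 for Hvcn1, 0.13 for Ncf4 and -0.14 for Ncf1. Leaving out any 1 of the 0-week arrays also left Rac2 short of the threshold, at an adjusted p of 0.0626, 0.113 or 0.0776.

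At 12 against 0 weeks in wild-type mice both genes of the membrane core and Rac2 rose, where 2.11% of all genes were called higher. Cybb rose by 4.86 (SE 0.45, adjusted p = 0.000333), the rise that ranked 2 among the 19505 genes. Rac2 rose by 3.01 (SE 0.50, adjusted p = 0.00646) and Cyba by 2.01 (SE 0.36, adjusted p = 0.00902), or 4.04-fold. Ncf4 (1.45, 95% interval 0.54 to 2.36, adjusted p = 0.0960), Hvcn1 (1.28, 0.56 to 2.01, adjusted p = 0.0603) and Ncf1 (0.72, 0.22 to 1.22, adjusted p = 0.134) missed the threshold. All 6 genes had their 3 arrays at 12 weeks above the 3 at 0 weeks, as did 10.8% of all genes, and their median difference was 1.73 against -0.01 over all genes. Fitted on the 6 arrays compared alone, all 6 genes passed, and with array weights 5 did, Ncf1 being the exception. Without replicate 2 of the 12-week group, the array highest in microglia markers, only Cybb remained called, with Cyba at 1.74 (adjusted p = 0.0650) and Rac2 at 2.63 (adjusted p = 0.0529).

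The direct test of 12 against 3 weeks called none of the 6 with limma (3 had an unadjusted p under 0.05), where 0.082% of all genes were called in either direction. Cybb was at 1.95 (SE 0.45, 95% interval 0.99 to 2.91, adjusted p = 0.0950) and Cyba at 0.91 (SE 0.36, 0.15 to 1.68). The other 4 lay between 0.57 and 0.81, all higher at 12 weeks by value. No gene of the 6 had groups that did not overlap, where 7.83% of all genes had their 12-week arrays all above, and replicate 1 of the 3-week group made the overlap in all 6. Without that array Cybb passed at 2.68 (SE 0.29, adjusted p = 0.00142) and Cyba at 1.41 (SE 0.29, adjusted p = 0.0391), with 146 of all genes called in place of 16. The other 4 then lay between 0.86 and 1.52 and were not called.

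Loss of GnT-IX was compared with wild type at 12 weeks. None of the 6 passed with limma (2 had an unadjusted p under 0.05, Cybb and Hvcn1), where 0.0256% of all genes were called in either direction, and all 6 were lower by value in deficient mice. Cybb was at -1.37 (SE 0.45, 95% interval -2.33 to -0.41, adjusted p = 0.523) and Hvcn1 at -1.06 (SE 0.34, -1.78 to -0.34, adjusted p = 0.499). Rac2 was at -0.78 (95% interval -1.84 to 0.29), Cyba at -0.54 (-1.30 to 0.23), Ncf1 at -0.30 (-0.80 to 0.20) and Ncf4 at -0.22 (-1.13 to 0.69). Of these, Cybb alone had deficient arrays all below the wild-type arrays, as 5.57% of all genes had. The interval of Ncf4 allows a rise as well as a fall, and its difference turned to 0.08 without replicate 1 of the deficient group and to 0.17 without replicate 2 of the wild-type group.

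Against untreated wild-type mice, which the earlier comparisons also used as controls, GnT-IX-deficient mice at 12 weeks had the same 3 genes called higher, where 2.41% of all genes were. Genotype, diet and age all differ here, and their effects cannot be told apart. Below, deficient mice against 0 weeks means this comparison, and rose or fell there means higher or lower than in untreated wild-type mice. Cybb was higher by 3.48 (SE 0.45, adjusted p = 0.00204), Rac2 by 2.23 (SE 0.50, adjusted p = 0.0252) and Cyba by 1.48 (SE 0.36, adjusted p = 0.0348). Ncf4 was at 1.23 (95% interval 0.32 to 2.14, adjusted p = 0.112), Ncf1 at 0.42 (-0.08 to 0.92) and Hvcn1 at 0.22 (-0.50 to 0.95). All but Hvcn1 had groups that did not overlap, as 12% of all genes had in that direction. Cyba lost its call when any 1 of the 0-week arrays, or deficient replicate 2 or 3, was left out (adjusted p from 0.0591 to 0.140). For Rac2 this happened with 0-week replicate 1 or 2 and with deficient replicate 2 or 3 (adjusted p from 0.0650 to 0.115), and with trend and robust variance (adjusted p = 0.0601).

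**Figure D2:**
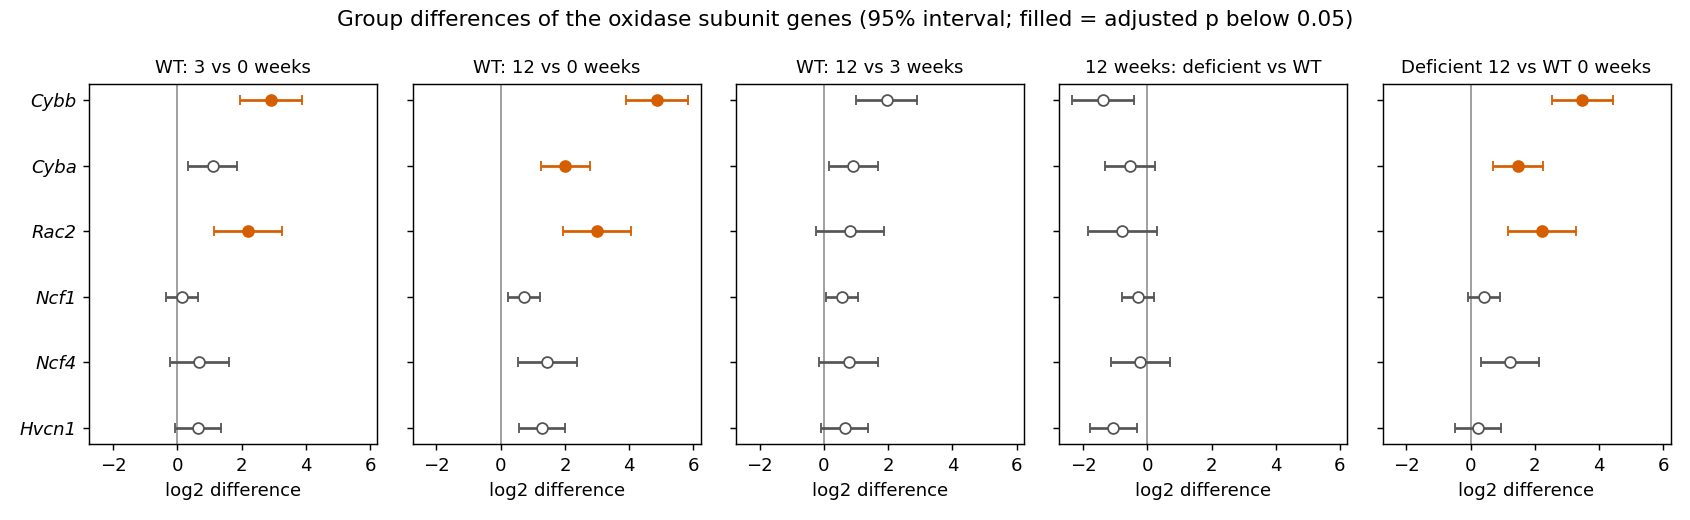
Difference between groups (log2) of each gene in the 5 comparisons, with its 95% interval from the limma fit. Filled points had an adjusted p below 0.05: Cybb and Rac2 at 3 weeks, and Cybb, Cyba and Rac2 in wild-type and in deficient mice at 12 weeks, all against wild-type mice at 0 weeks.

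Microglia markers moved with these differences. Of 17 measured markers 10 rose at 3 weeks and 15 at 12 weeks in wild-type mice, and 13 rose in deficient mice against 0 weeks. The shares of all genes called higher were 1.61%, 2.11% and 2.41% in the same order. None of the 17 was called between the genotypes, although all 17 were lower by value in deficient mice. Their mean was 5.12 to 5.65 at 0 weeks, 6.46 to 8.70 at 3 weeks, 7.80 to 8.86 in wild-type and 7.16 to 8.15 in deficient mice at 12 weeks. Of the 17, Aif1 (which encodes Iba1) was below the lower quartile at 0 weeks and none was in the cuprizone groups. The array with the highest marker mean was also the array highest in 6 of 6 oxidase genes at 3 weeks, but in 2 of 6 at 0 weeks. In either group at 12 weeks it was highest in 5 of 6, the exceptions being Ncf1 in wild-type and Cybb in deficient mice. The share of all genes highest on those arrays is not given here, so these counts are a description. Of 10 astrocyte markers 6 fell and 1 rose at 3 weeks, and 1 fell and 1 rose at 12 weeks in wild-type mice. In deficient mice against 0 weeks 4 fell and 1 rose. Calls in either direction among all 19505 genes numbered 632, 514 and 801 in the same order. Of 7 oligodendrocyte markers 1 fell at 12 weeks in wild-type mice (median of the 7, -0.93), and none was called in the other comparisons. In these bulk samples more cells of a type and more RNA per cell cannot be told apart.

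Of the 6 genes Rac2 kept closest to these markers, while Cybb rose above them and the other 4 lagged. The difference of each gene from the marker mean was taken on every array, and its change between groups is given here, with exact two-sided permutation tests that cannot go below p = 0.1 with 3 against 3 arrays. For Rac2 the change against the markers was 0.24 at 3 weeks and 0.19 at 12 weeks in wild-type mice (exact p = 0.1 and 0.2), and -0.02 in deficient mice against 0 weeks (exact p = 0.9). Cybb exceeded the markers by 0.95 at 3 weeks and by 2.04 at 12 weeks, with no overlap of the arrays (exact p = 0.1 each, the smallest possible), as 0.108% and 0.133% of all genes did. The 3-week arrays of Rac2 also lay above its 0-week arrays on this scale without overlap. At 12 against 0 weeks Cybb rose more than each of the 17 markers, which ranged from 0.51 for Tmem119 to 4.33 for Tyrobp. It rose more than 16 of them at 3 weeks and more than 15 in deficient mice against 0 weeks.

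Cyba fell behind the markers by 0.86 at 3 weeks and 0.80 at 12 weeks, and the other 3 genes lagged further (exact p = 0.1 each). On this scale 93.2% of all genes at 3 weeks and 99.5% at 12 weeks had all cuprizone arrays below all 0-week arrays, so the lag of these 4 is that of nearly every gene. At 12 weeks the change against the markers was -1.37 for Ncf4, -1.53 for Hvcn1 and -2.10 for Ncf1. Ncf4 and Hvcn1 were near or below the lower quartile at 0 weeks, and the part of this in their lag was not tested. Between the subunits of the core, Cybb gained 1.81 on Cyba at 3 weeks, 2.84 at 12 weeks in wild-type mice and 2.01 in deficient mice against 0 weeks (exact p = 0.1 each), a difference chosen after seeing the data.

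Between genotypes at 12 weeks the change against the markers was -0.81 for Cybb, -0.50 for Hvcn1, -0.21 for Rac2, 0.03 for Cyba, 0.26 for Ncf1 and 0.34 for Ncf4. Cybb, Hvcn1 and Ncf4 had arrays that did not overlap on this scale (exact p = 0.1, the smallest possible), the first 2 lower and Ncf4 higher in deficient mice. Of all genes 0.113% lay lower without overlap on this scale and 10.2% higher. By value Cybb (-1.37) and Hvcn1 (-1.06), neither of them called, differed more between the genotypes than any of the 17 markers. The differences of the markers ran from -0.89 for Laptm5 to -0.06 for Tmem119. With the marker mean as a covariate in the limma fit, no oxidase gene was called in any of the 5 comparisons. For 12 against 3 weeks and between the genotypes no oxidase gene was called without it either. Few genes of any kind passed with it: 5 at 3 weeks and 0 at 12 weeks, against 632 and 514 without it. The marker mean differed between the groups, so a missing call in that fit decides nothing about a gene. With the covariate Cybb was at 1.12 (SE 0.36) at 3 weeks, 2.29 (SE 0.46) at 12 weeks and -0.86 (SE 0.25) between the genotypes. Rac2 was at 0.02 (SE 0.25), -0.13 (SE 0.32) and -0.15 (SE 0.17) in the same order. Without the covariate the SEs of Cybb and Rac2 were 0.45 and 0.50. The part of microglia in these differences was not tested.

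**Figure D3:**
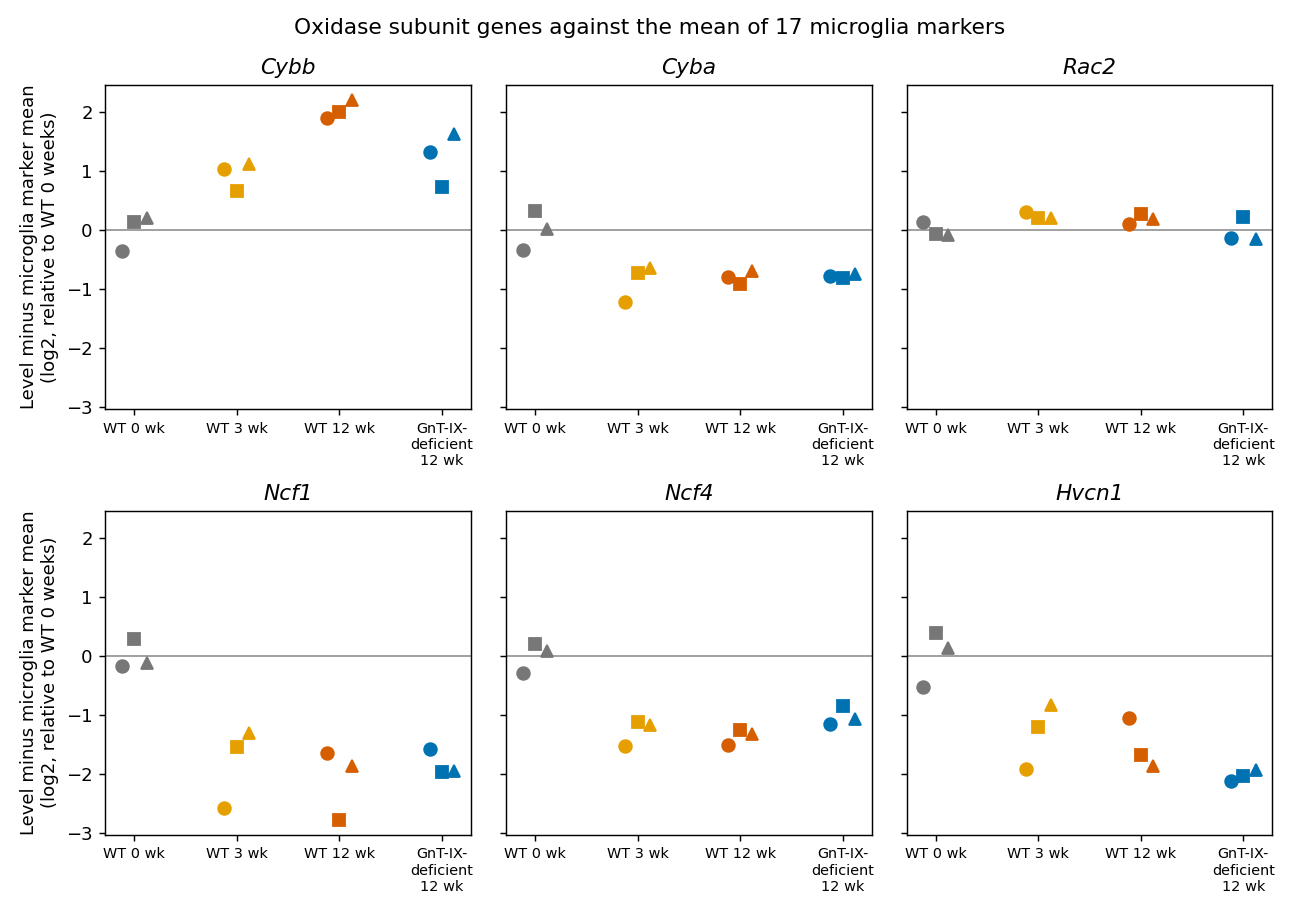
Level of each gene minus the mean of 17 microglia markers on the same array (log2), set to 0 at the mean of the 0-week group, with circles, squares and triangles for replicates 1, 2 and 3. Cybb lies above 0 on every cuprizone array, with mean changes of 0.95, 2.04 and 1.23, Rac2 stays near 0, and Cyba, Ncf1, Ncf4 and Hvcn1 lie below it.

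Neutrophils and B cells also make this oxidase, and neutrophils depend on it. Of 11 neutrophil markers 1 rose at 3 and at 12 weeks, and it was Csf3r (3.13 at 12 weeks), the receptor for granulocyte colony-stimulating factor, named after its value was seen. Of the 11, S100a8, Ltf, Ngp, Mmp8 and Retnlg averaged below the lower quartile in all 4 groups, S100a9 in 3 and Cxcr2 in 2, while Camp, Mpo, Elane and Csf3r did in none. Apart from Csf3r, no neutrophil marker was called in any comparison. Of 5 B cell markers 1 rose, at 12 weeks in wild-type mice, the adaptor gene Blnk (2.57), also named after its value was seen, while Cd79a, Cd79b, Ms4a1 and Pax5 lay between 3.43 and 4.41 in every group mean. No T cell marker of 5 was called. Of 9 monocyte and border macrophage markers 1 rose at 12 weeks in wild-type mice, Ms4a7 (3.54), and 2 in deficient mice against 0 weeks, Ms4a7 (3.03) and Mrc1 (1.46), all named after their values were seen. Mrc1 was at 1.41 (adjusted p = 0.0512) at 12 weeks in wild-type mice. Ccr2 and Plac8 averaged below the lower quartile in all 4 groups. Of 7 endothelial markers 4 rose at 12 weeks in wild-type mice and 3 in deficient mice against 0 weeks. Of 7 choroid plexus markers 2 rose in deficient mice against 0 weeks. Beside these lists, 1.61% of all genes were called higher at 3 weeks and 2.11% at 12 weeks in wild-type mice. The share in deficient mice against 0 weeks was 2.41%. The choroid plexus mean was 4.89 to 7.72 on the deficient arrays and 4.26 to 4.74 in wild-type mice at 12 weeks. The part of these lists in the results for the oxidase genes was not tested.

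Genes that switch the oxidase on were mostly not called. At 12 weeks in wild-type mice 12 of the 15 measured were not called, and the median was 0.43. At 3 weeks 1 rose, where 1.61% of all genes were called higher, and none fell at either time. At 12 weeks 3 rose, where 2.11% of all genes were called higher. These were Dock2 (3.07, SE 0.56, adjusted p = 0.00977) and Vav1 (2.39, SE 0.54, adjusted p = 0.0279), exchange factors that load Rac with GTP in blood cells, and Pik3cg (1.68, SE 0.35, adjusted p = 0.0197), the lipid kinase subunit downstream of chemoattractant receptors. Pik3cg was the member called at 3 weeks (1.37, adjusted p = 0.0450). None of the 15 was called in deficient mice against 0 weeks or between the genotypes, where Dock2 was at -1.43 (95% interval -2.62 to -0.24, adjusted p = 0.633).

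Of 5 transcription factor genes known to drive oxidase genes in myeloid cells, Spi1 and Irf8 rose at 12 weeks, where 2.11% of all genes were called higher. Spi1 was at 5.34, 4.91 and 4.67 at 0 weeks, 9.06, 6.92 and 6.62 at 3 weeks, 8.11, 9.34 and 8.07 at 12 weeks, and 7.08, 8.51 and 7.39 in deficient mice. It rose by 2.56 at 3 weeks (adjusted p = 0.0171), 3.53 at 12 weeks (adjusted p = 0.00307) and 2.69 in deficient mice against 0 weeks (adjusted p = 0.0146). Irf8 was at 5.05, 5.10 and 5.47 at 0 weeks, at 6.12, 6.11 and 6.20 at 12 weeks in wild-type mice and at 5.57, 5.60 and 5.56 in deficient mice. Its wild-type arrays at 12 weeks lay above those of each other group. Taken 1 group at a time, so did those of 10.8% of all genes against 0 weeks and 7.83% against 3 weeks. Against the deficient arrays 5.57% of all genes did. Irf8 rose at 12 weeks by 0.94 (SE 0.20, adjusted p = 0.0214). Its difference between the genotypes, -0.57 (95% interval -0.99 to -0.15), was not called (adjusted p = 0.573). The others, Irf1, Cebpb and Cebpe, were not called in any comparison.

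Other NADPH oxidases were mostly dim, with 5 or 6 of 7 measured genes below the lower quartile in each group, so changes among them could go unseen. None of the 7 genes of NOX and DUOX enzymes and their partners was called in any of the 5 comparisons, the medians lay between -0.16 and 0.08, and Nox4, which makes hydrogen peroxide without cytosolic organisers, was between 3.54 and 4.26 on all arrays. Of the 3 other core and assembly genes measured (Rac1, Rap1a and Cybc1, the chaperone of gp91phox) and of 7 Rac-related GTPases none was called either.

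Of 11 measured enzymes that remove superoxide and peroxide, 2 were called at 3 weeks and 1 at 12 weeks in wild-type mice. In deficient mice against 0 weeks 3 were called. Calls in either direction among all 19505 genes numbered 632, 514 and 801 (4.11%) in the same order. Gpx1, a glutathione peroxidase, rose by 1.08 at 3 weeks (adjusted p = 0.0313), 1.57 at 12 weeks (adjusted p = 0.00519) and 1.38 in deficient mice against 0 weeks (adjusted p = 0.0112). Sod3, the extracellular superoxide dismutase, fell by 0.91 at 3 weeks (adjusted p = 0.0159) and by 1.12 in deficient mice against 0 weeks (adjusted p = 0.00635), and was at -0.44 (adjusted p = 0.265) at 12 weeks in wild-type mice. Gpx4 rose by 0.72 in deficient mice against 0 weeks (adjusted p = 0.0395). The median of the 11 was 0.16 at 3 weeks and 0.04 at 12 weeks in wild-type mice, and 0.21 in deficient mice against 0 weeks.

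**Figure D4:**
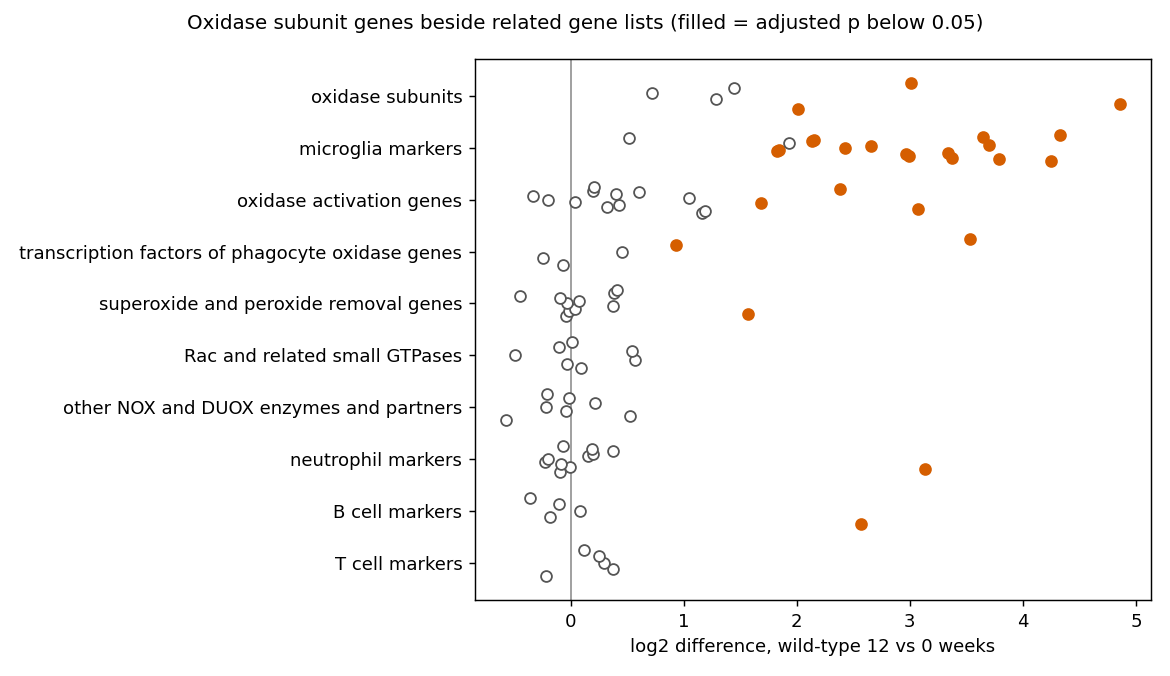
Difference between 12 and 0 weeks in wild-type mice (log2) for each measured gene of 10 lists, 1 point per gene, filled where the adjusted p was below 0.05. Oxidase subunits spread from 0.72 to 4.86 beside microglia markers from 0.51 to 4.33, and no gene of the NOX and DUOX list, the Rac-related list or the T cell list is filled.

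Likeness was measured as the root mean square difference, over the 12 arrays, between log2 profiles centred on their own means, so that 0 is an identical course. Between the 6 genes it ran from 0.25 for Cyba and Ncf4 to 1.59 for Cybb and Ncf1, with 0.76 for Cybb and Rac2 and 1.07 for the core pair Cybb and Cyba. Among all other genes the 5 nearest to the mean course of the 6 were Hpgds (0.18), the haematopoietic prostaglandin D synthase, Ctsh (0.19), a lysosomal cathepsin, Fyb (0.19), an adaptor of blood cells, Pycard (0.21), the inflammasome adaptor, and Igf1 (0.22). Cybb itself was nearest to C3ar1 (0.37), the complement C3a receptor, and to Bcl2a1d (0.39) and Bcl2a1b (0.43), gene copies so alike that their values are uncertain. Rac2 was nearest to Csf1r (0.19), the growth factor receptor of microglia, Pld4 (0.20) and Fcer1g (0.23). Cyba lay nearest to Hpgds (0.20), Ctsh (0.21) and Pycard (0.21), and Ncf4 to Slamf6 (0.18), Otulinl (0.21) and Ctsz (0.24). Ncf1 was nearest to Tmem273 (0.16), Tfec (0.17) and AB124611 (0.18), while the nearest courses to Hvcn1 were those of Stat6 (0.26), Arhgap45 (0.27) and Il1rl2 (0.28). All arrays of a group share their treatment, so these values describe the course over the groups as well as the spread within them.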

How the data were processed

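The deposited log2 values came from RMA in Affymetrix Expression Console 1.4, per the submitters' processing notes. The RNA kit of each sample and the genome build are not given in the sources used here. Of 22206 transcript clusters, 19572 had 1 symbol, updated through Entrez identifiers with RefSeq (GRCm38.p6, all matched), and 2634 were left out. For 55 genes with several clusters the brightest was used, leaving 19505 genes with no filter on dim ones. No columns were identical.

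Tests were two-sided and used lmFit and eBayes of limma 3.58.1 (R 4.3.3). The 12 arrays entered 1 fit, with 1 mean per group and 8 residual degrees of freedom. Adjusted p-values are Benjamini-Hochberg values over all genes, with a threshold of 0.05. P-values measure the spread between 3 biological replicates a group, and the number of arrays limits the precision. Named genes were the 6 genes, Mgat5b, Slc1a3, Rac1, called genes of the pathway lists (up to 4 each) and the nearest courses. Cell type lists are named with their results. The alternatives were a second normalization, centring, a dim filter, the clusters' mean, the variance model, array weights, the arrays fitted, a replicate block, a microglia covariate and leaving out each array. Members and lists were chosen with earlier results of these data known. Replicate numbers were checked for pairing: same-numbered arrays' deviations correlated with r from -0.28 to 0.22, so the numbers were not taken as pairs.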

Additional observations from a re-analysis of the deposited data

How the results depend on the processing

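Under quantile normalization, median centring, the mean of clusters, the filter on dim genes and the replicate block, the number of oxidase genes called was the same as reported in all 5 comparisons (2, 3, 0, 0 and 3 genes in the order 3 vs 0, 12 vs 0, 12 vs 3 weeks, deficient vs wild type, and deficient vs 0 weeks). The filter on dim genes left out Hvcn1, so the counts under that filter could not include it. With the replicate block the count stayed at 2 at 3 weeks and 3 at 12 weeks, and 543 and 442 of all genes passed. Trend and robust variance left 1 gene at 3 weeks, with Rac2 at an adjusted p of 0.0761, and 2 in deficient mice against 0 weeks, with Rac2 at 0.0601. Array weights raised the count at 12 weeks to 5 and the fit on the 6 arrays compared raised it to 6, and that in deficient mice against 0 weeks to 4. The microglia covariate left 0 at 3 weeks, at 12 weeks and in deficient mice against 0 weeks (limma; 5, 0 and 3 of all genes passed, against 632, 514 and 801). Leaving out 1 array gave 1 to 2 genes at 3 weeks, 1 to 4 at 12 weeks, 0 to 2 for 12 vs 3 weeks, 0 between genotypes and 1 to 3 in deficient mice against 0 weeks. Over all genes, leaving out 1 array gave 192 to 643, 77 to 504, 0 to 146, 3 to 49 and 98 to 1062 calls in the same order. Array weights gave 919 at 12 weeks, and 33 for 12 vs 3 weeks, where trend and robust variance gave 30 and the fit on 6 arrays and the dim filter 9 each, against 16. The cause was not tested.

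Signs turned with the covariate and with single arrays left out. At 3 weeks the covariate put Cyba at -0.36, Ncf1 at -0.58, Ncf4 at -1.10 and Hvcn1 at -0.52. At 12 weeks it put Cyba at -0.088, Ncf1 at -0.33, Ncf4 at -1.12, Rac2 at -0.13 and Hvcn1 at -0.38, and for 12 vs 3 weeks Ncf4 at -0.018 and Rac2 at -0.15. In deficient mice against 0 weeks it put Cyba at -0.20, Ncf1 at -0.42, Ncf4 at -0.82, Rac2 at -0.28 and Hvcn1 at -1.11, and between genotypes Ncf4 at 0.29. Leaving out 1 array also turned signs: Ncf1 at 3 weeks ran from -0.14 (without replicate 1 of that group) to 0.34. Ncf4 between genotypes ran from -0.57 to 0.17, and was at 0.08 without deficient replicate 1 and at 0.17 without wild-type replicate 2. Hvcn1 in deficient mice against 0 weeks ran from -0.03 (without deficient replicate 2) to 0.50. Cybb kept its direction in all 75 refits; where called, it lost its call with the covariate only.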
